A study of Arabidopsis thaliana with 18 samples.

Results

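The genes described here encode proteins of the cytosolic large (60S) ribosomal subunit of *Arabidopsis thaliana*. They were taken as a list of 48 loci out of the 27444 coding genes on chromosomes 1 to 5, by their annotation and not by a threshold on measured values, although earlier results of these data were known. All 48 loci are annotated in RefSeq as structural constituents of the ribosome, and 36 of them are also placed there in the cytosolic large subunit. The loci form 23 protein families, of which 18 are represented by 2 or more paralogues. Another 81 coding genes annotated to the same subunit and 83 genes of the small (40S) subunit served for comparison.

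The 60S subunit carries the peptidyl transferase centre and the tunnel through which the growing protein leaves the ribosome. Plants encode most of its proteins in small families of near-identical paralogues, whose mRNAs are abundant in dividing tissue and are translated together. HEN2 is an RNA helicase that delivers RNA to the nuclear exosome for degradation, and SPT16 and SSRP1 are the subunits of FACT, a histone chaperone that travels with RNA polymerase II. Short promoter-proximal RNAs are capped and polyadenylated molecules that start at a promoter and end shortly after it.

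TIF-seq joins the 5′ end and the 3′ end of single capped and polyadenylated RNA molecules in read pairs, and read pairs with both ends close together were joined by the authors into TIF-clusters. Seedlings were 14 days old and grown on plates at 22 °C. Col-0 wild type and the mutants *hen2-2*, *spt16-1* and *ssrp1-2* were sampled at that temperature, and the first pair of genotypes was also sampled after 3 h at 4 °C, with 2 libraries each and 12 in all. Each mutant was represented by 1 allele in whole seedlings, in which fewer cells of a type and less RNA per cell cannot be told apart. The libraries of a group had been merged before deposition, so each group is 1 list of TIF-clusters without replicate error. Intervals below are 95% intervals that cover counting error only, and no p-value is given.

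The lists held from 410655 read pairs (*hen2-2* at 4 °C) to 924907 (*spt16-1*), and no TIF-cluster had fewer than 3. The mutated genes themselves were sparsely covered. *HEN2* had 4 read pairs in wild type and none in either *hen2-2* list, but also none in wild type at 4 °C. *SSRP1* had 5 in wild type and none in *ssrp1-2*, while *SPT16* had 30 in wild type and 31 in *spt16-1*, so its level did not mark the mutant list. Series of 6 values are given below in 1 order. The 22 °C lists come first (wild type, then *hen2-2*, then the FACT mutants *spt16-1* and *ssrp1-2*), followed by the cold lists of wild type and of *hen2-2*. A list named without a temperature is that of 22 °C.

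On the strand of the 60S genes lay 13286, 16542, 11900, 10882, 9434 and 5611 read pairs, which are 1.58%, 2.08%, 1.29%, 1.54%, 1.37% and 1.37% of the lists. The share was highest in *hen2-2* (95% Wilson interval 2.05% to 2.11%) and lowest in *spt16-1* (1.26% to 1.31%). Scaled to a common total of 1000000 read pairs per list (RPM), the median gene stood at 288, 359, 224, 294, 221 and 231 RPM. The 10 leading genes of a list held between 45.5% and 51.2% of all read pairs of the 60S genes. Every gene had read pairs in at least 1 list, 26 had 1000 or more over the 6 lists and 7 had fewer than 100.

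**Figure D1:**
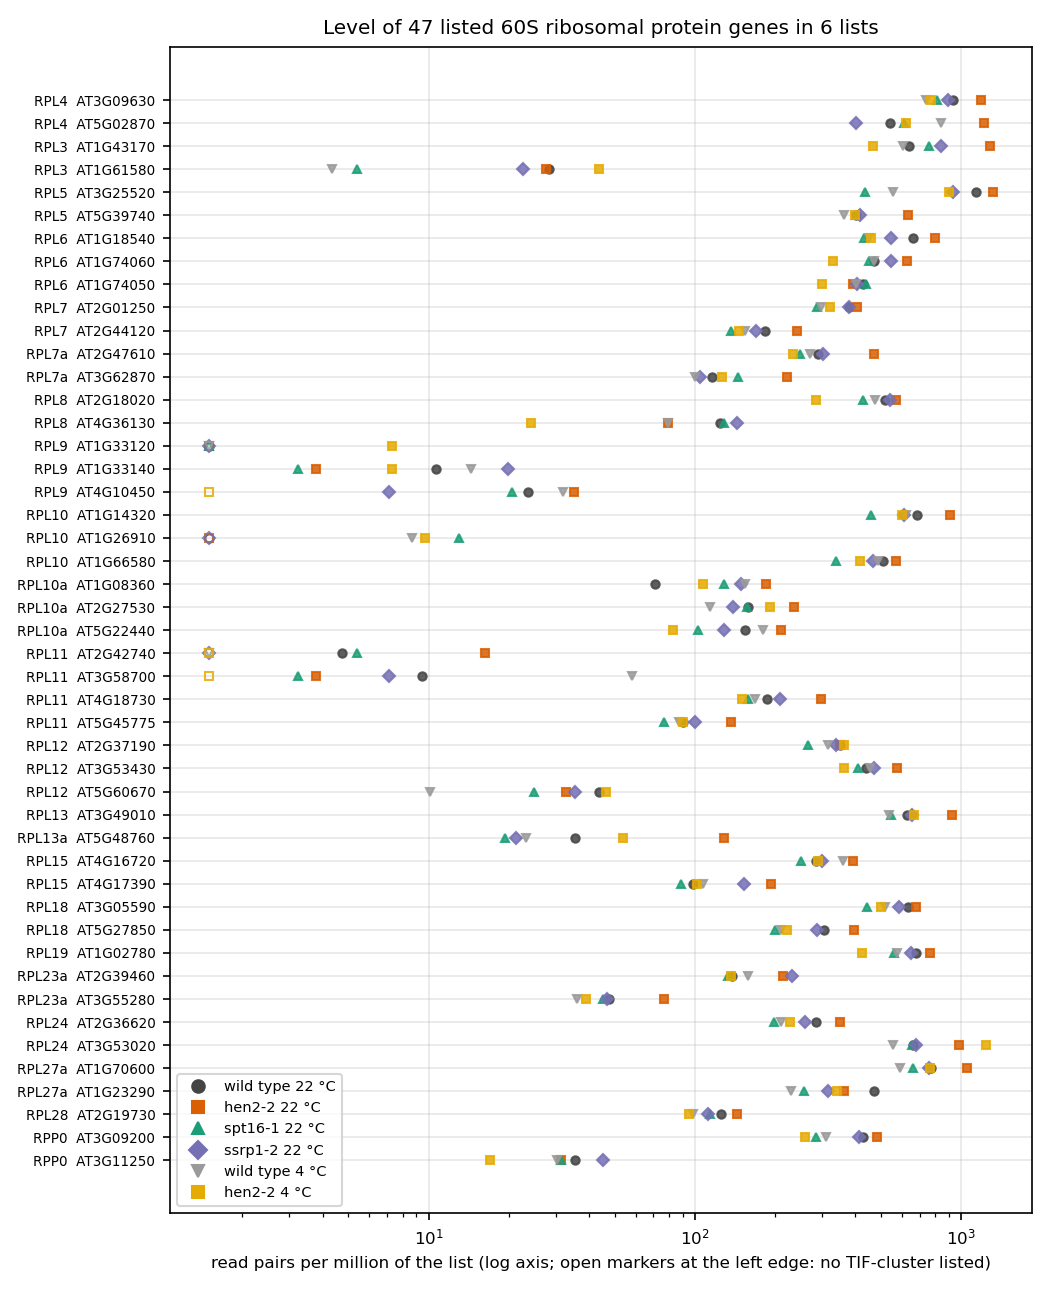
Level in RPM (log axis) for 47 of the 48 genes, one marker per list, ordered by protein family, with open markers at the left edge where no TIF-cluster was listed. Between 31 and 36 of the 47 genes lay from 100 to 1000 RPM in a list, and AT1G33120, AT1G33140, AT1G26910 and AT2G42740 had the lowest means over the lists.

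*RPL4* encodes a protein that lines the exit tunnel, and its gene AT3G09630 had the most read pairs over the 6 lists, with 790, 949, 750, 631, 509 and 318. Its paralogue AT5G02870 had 455, 969, 565, 284, 580 and 255. RPL5 binds the 5S ribosomal RNA before assembly, and AT3G25520 (*ATL5*) had 964, 1047, 402, 659, 385 and 369 read pairs. RPL3 reaches towards the peptidyl transferase centre, and AT1G43170 (*RP1*) had 536, 1021, 699, 595, 419 and 192. In each of these 4 genes the list of *hen2-2* at 22 °C was the highest of the 6.

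*RPL27a* AT1G70600 had 649, 835, 609, 537, 408 and 315 read pairs, and *RPL24* AT3G53020 (*STV1*), whose protein forms a bridge to the small subunit, had 558, 784, 604, 478, 384 and 512. *RPL13* AT3G49010 (*BBC1*) had 529, 734, 506, 461, 369 and 273, and *RPL10* AT1G14320 (*SAC52*), whose protein joins late in subunit maturation, had 577, 721, 426, 433, 431 and 246. AT3G53020 stood at 662, 987, 653, 678, 556 and 1247 RPM and was the most abundant of the 48 genes in *hen2-2* at 4 °C. *RPL19* AT1G02780 (*emb2386*) had 570, 606, 519, 458, 398 and 174 read pairs, and *RPL6* AT1G18540 had 559, 636, 400, 385, 313 and 189. In these last 2 genes no short start TIF-cluster was found in any list.

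Full-length TIF-clusters are here those that span the coding sequence of the gene, taken to its outer limits over isoforms. They held 86.4%, 84.1%, 91.7%, 90.7%, 91.4% and 77.0% of the read pairs of the 60S genes. Over all coding genes the share was 85.6%, 86.2%, 88.2%, 89.7%, 88.8% and 82.6%. In at least 1 list, 45 of 48 genes had a full-length TIF-cluster, and the *RPL9* genes AT1G33120 and AT1G33140 were among those that had none. Read pairs of genes without one stay in the totals and lower the share. Differences of the share from that over all coding genes are therefore not read as a trait.

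A 60S gene with full-length TIF-clusters had a mean of 6.82, 7.34, 6.49, 6.60, 6.14 and 4.85 of them, against 3.53, 3.47, 3.72, 3.36, 3.53 and 2.81 over all coding genes. The number of isoforms rises with the number of read pairs. Among genes in the middle range of full-length read pairs of the 60S genes in wild type (91.3 to 396), the 22 60S genes had a mean of 7.59 and all 1099 genes a mean of 8.38. In the range of each of the other lists the means were 8.36 against 9.21, 7.13 against 8.69, 7.19 against 8.19, 6.77 against 7.89 and 5.32 against 5.83. The most isoforms in 1 list were the 18 of *RPP0* AT3G09200 in wild type, which encodes the base of the acidic stalk.

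Isoforms of a gene differed more at the 3′ end than at the 5′ end. In the median gene, 86.6% of the full-length read pairs started within 10 nt of the most used start, while 45.5% ended within 10 nt of the most used end. The middle 80% of the read pairs spanned a median of 12 nt at the start and 50 nt at the end. The most used start lay a median of 56 nt before the start codon (interquartile range 39 to 107), against 70 nt in the 637 genes with 1000 or more full-length read pairs. Full-length TIF-clusters of AT1G70600 ended at 55 different bases over the 6 lists and at 14 in wild type. Ends were compared to the base, so 1 site can be counted again in another list. The leading isoform of the gene held between 25.6% and 64.1% of its full-length read pairs.

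Short start TIF-clusters are those under 350 nt that overlap the most used start of the gene, extended by 40 nt, and do not reach its annotated end. They were found at 3 of 44, 20 of 44, 1 of 45, 1 of 43, 2 of 44 and 21 of 41 60S genes with a full-length TIF-cluster in the list. The same count over all coding genes was 2.11%, 13.6%, 1.41%, 0.712%, 0.790% and 14.2% of genes. The share was thus 45.5% of the 60S genes in *hen2-2* and 51.2% in *hen2-2* at 4 °C, against 13.6% and 14.2% of all coding genes. Detection depends on abundance. Among genes with 100 or more full-length read pairs, 19 of 35 60S genes had short start TIF-clusters in *hen2-2* against 31.7% of all such genes, and 9 of 20 against 36.5% at 4 °C. These are 54.3% and 45% of the 60S genes. They count genes of a fixed list, so no interval is given, and at 4 °C the share rests on 20 genes. Among the other large subunit genes the counts were 29 of 40 and 12 of 16, and among the small subunit genes 18 of 42 and 7 of 22.

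These TIF-clusters held 21, 660, 6, 6, 8 and 592 read pairs, which are 0.158%, 3.99%, 0.0504%, 0.0551%, 0.0848% and 10.6% of the read pairs of the 60S genes. The interval was 3.70% to 4.30% in *hen2-2* and 9.77% to 11.4% in *hen2-2* at 4 °C, while over all genes the shares in these lists were 2.03% and 3.25%. A single gene, AT3G53020, held 221 and 290 of these read pairs in the *hen2-2* lists, and without it the shares were 2.79% (2.54% to 3.05%) and 5.92% (5.31% to 6.60%). In the same 2 lists the share was 3.39% and 7.47% for the other genes of the large subunit and 1.98% and 5.08% for those of the small subunit. Of the 20 and 21 genes in the *hen2-2* lists, 18 were in both. How many of all genes were in both lists was not counted, so this overlap has no background beside it. Both calls depend on where the start is placed. With the annotated gene start in place of the most used 5′ end, only 2 and 3 of the 60S genes were called, and with lists thinned to the total of the smallest one, TIF-clusters left under 3 read pairs dropped, the count in *hen2-2* was 13.

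**Figure D2:**
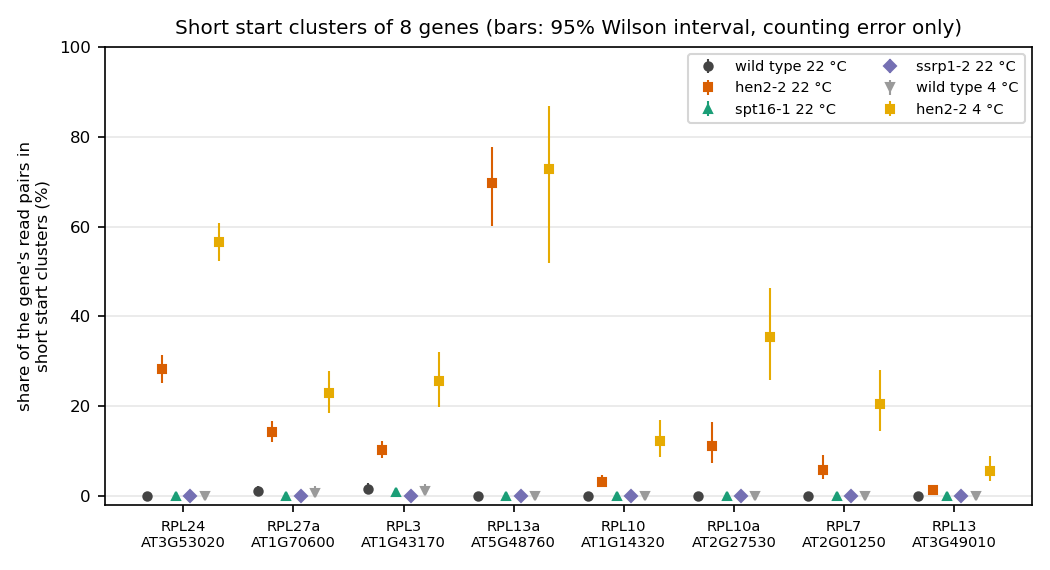
Share of a gene's read pairs in short start TIF-clusters, in percent, for the 8 genes with most such read pairs and the 6 lists, with 95% Wilson intervals for counting error where any were listed. The shares of both *hen2-2* lists stand above those of the other 4 lists in each gene, from 1.36% at AT3G49010 to 72.7% at AT5G48760. Nearly all short start read pairs lay in the *hen2-2* lists, so this order was close to given by the choice of genes.

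*RPL24* AT3G53020 lies on the minus strand of chromosome 3 from 19660488 to 19662025. Its short start TIF-clusters held 221 read pairs in *hen2-2* and 290 in *hen2-2* at 4 °C, and none was listed in the other 4 lists. They made up 28.2% of the read pairs of the gene in *hen2-2* (25.2% to 31.4%) and 56.6% at 4 °C (52.3% to 60.9%). By number of short start read pairs the gene was second of 1587 genes in *hen2-2* and first of 1430 at 4 °C. The STV1 protein is known for its part in reinitiation of translation after upstream reading frames.

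The largest short start TIF-cluster of AT3G53020 in *hen2-2* held 185 read pairs, spanned 99 nt and lay at chr3:19661887-19661985. Its ends are shown because they place the transcript against the first exon. The first line below runs from chr3:19661966-19661995 with the first base of the TIF-cluster in capitals. The second runs from chr3:19661877-19661906 with its last base in capitals, and the third runs from chr3:19661887-19661916 with the first bases of intron 1 in capitals, all on TAIR10, minus strand, 5′ to 3′.
AT3G53020 start: aattagggttTtctagtctagtgtttccgg
AT3G53020 end: ctcaagtaatcaaatctcaCctctctctct
AT3G53020 exon 1 to intron 1: taccatggttctcaaGTaatcaaatctcac
The transcript thus ran past the start codon, which lies 107 nt from the most used start, and past the end of exon 1, and ended inside intron 1. In *hen2-2* at 4 °C the largest one held 127 read pairs and spanned 109 nt, and others with 72 and 53 read pairs ended 115 and 127 nt from the most used start.

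The study assayed this gene singly. Per its methods, mRNA and short promoter-proximal RNA were amplified with the same forward primer but different reverse primers. The reverse primer printed here is named as that of the mRNA pair. Its place and that of the forward primer are shown because they fall on different sides of the 3′ ends. The forward primer lies at chr3:19661951-19661971 and the reverse primer at chr3:19661482-19661505 of TAIR10.
AT3G53020 forward primer: ttccgggagcagcctgagcag
AT3G53020 reverse primer: cctgggtaaatcttctgtccactg
All 11 short start TIF-clusters of the 2 *hen2-2* lists contained the forward primer, and none contained the reverse primer of the mRNA pair.

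Full-length TIF-clusters of AT3G53020 held 517, 544, 582, 469, 377 and 197 read pairs, or 613, 685, 629, 665, 546 and 480 RPM. In RPM the full-length level in *hen2-2* at 4 °C was thus the lowest of the 6 lists, while the total of the gene was the highest. The gene had 2 groups of start sites, and the downstream group, over 20 nt beyond the most used start, held 93.0%, 40.8%, 92.1%, 56.1%, 91.5% and 97.0% of the full-length read pairs. Of the short start read pairs, 93.2% in *hen2-2* and 70% at 4 °C began in the downstream group. This split was chosen after the values were seen, and a TIF-cluster carries a single start for all read pairs joined in it. The paralogue AT2G36620 (*RPL24A*) had 241, 280, 183, 183, 146 and 94 read pairs and no short start TIF-cluster in any list.

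*RPL27a* AT1G70600 lies on the minus strand of chromosome 1 from 26620821 to 26621779 and has a single annotated exon. Its short start TIF-clusters held 7 read pairs in wild type, 119 in *hen2-2*, 3 in wild type at 4 °C and 72 in *hen2-2* at 4 °C, and none was listed in *spt16-1* and *ssrp1-2*. The shares of the gene were 1.08% in wild type (0.523% to 2.21%), 14.3% in *hen2-2* (12.0% to 16.8%), 0.735% in wild type at 4 °C (0.250% to 2.14%) and 22.9% in *hen2-2* at 4 °C (18.6% to 27.8%). The intervals of the *hen2-2* lists did not overlap those of the wild-type lists. This was close to given by the choice of the gene, which was among those with most short start read pairs. The paralogue AT1G23290 (*RPL27AB*) had 397, 290, 239, 224, 159 and 141 read pairs, of which 3 were short start read pairs in each *hen2-2* list.

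The largest short start TIF-cluster of AT1G70600 in *hen2-2* held 52 read pairs and spanned 96 nt at chr1:26621561-26621656. The line for its start runs over chr1:26621637-26621666 and that for its end over chr1:26621551-26621580, on the minus strand of TAIR10, with the first and the last base of the TIF-cluster in capitals. The forward primer of the study lies at chr1:26621611-26621632 and the reverse primer of its mRNA pair at chr1:26621523-26621547.
AT1G70600 start: agaaaccctaGccgcaaagagagaaaggga
AT1G70600 end: agaagagaggtcacgtcagCgccggacatg
AT1G70600 forward primer: ggagagtgtagcagatcggcga
AT1G70600 reverse primer: ggatgcttacggtgcttaccgatac
The end lay 47 nt beyond the first base of the start codon, inside the coding sequence. All 8 short start TIF-clusters of the 2 *hen2-2* lists contained the forward primer, and 1 of them, with 3 read pairs, also contained the reverse primer.

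The plus strand of chromosome 1 carries *RPL3* AT1G43170 between 16266553 and 16268945. Its short start TIF-clusters held 8, 105, 6, 0, 5 and 49 read pairs, and were 10.3% of the gene in *hen2-2* (8.57% to 12.3%) and 25.5% at 4 °C (19.9% to 32.1%). In wild type and *spt16-1* they spanned 38 and 41 nt and ended inside exon 1, and in wild type at 4 °C they spanned 68 nt and ended in intron 1. The largest in *hen2-2*, with 53 read pairs, spanned 139 nt and ended in intron 1, still 103 nt before the start codon. The sequences show the exon boundary at chr1:16266776-16266805, with the first bases of intron 1 in capitals, and the end of that TIF-cluster at chr1:16266870-16266899, with its last base in capitals.
AT1G43170 exon 1 to intron 1: agccgtcggcacaagGTtcgtctttctctc
AT1G43170 end: tagtttagcgaatctaggaTaatctccgga
The paralogue AT1G61580 (*RPL3B*) had 24, 22, 5, 16, 3 and 18 read pairs. In *hen2-2* and *hen2-2* at 4 °C, 19 and 18 of these were in TIF-clusters that began at its most used start and spanned 371 to 391 nt, so they fall outside the length limit.

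*RPL13a* AT5G48760 had the highest share of short start read pairs. It had 30, 102, 18, 15, 16 and 22 read pairs, of which 71 in *hen2-2* and 16 in *hen2-2* at 4 °C were in short start TIF-clusters and none in the other lists. The shares were 69.6% (60.1% to 77.7%) and 72.7% (51.8% to 86.8%). Its full-length read pairs were 30, 31, 18, 15, 16 and 6, so the higher total in *hen2-2* lay in the short start TIF-clusters. The largest one in *hen2-2* held 45 read pairs, spanned 59 nt and ended 34 nt beyond the first base of the start codon.

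In 4 more genes the short start read pairs of the *hen2-2* lists were fewer and the other lists had none. *RPL10* AT1G14320 had 22 and 30, or 3.05% and 12.2% of the gene. *RPL10a* AT2G27530 (*PGY1*), named for the leaf phenotype of its mutant, had 21 and 28, or 11.2% and 35.4%. *RPL7* AT2G01250 had 19 and 27, or 5.90% and 20.5%, and *RPL13* AT3G49010 had 10 and 15, or 1.36% and 5.49%. In each of these 4 genes, and in AT3G53020, AT1G70600 and AT1G43170, the interval of the share at 4 °C lay above that at 22 °C. A share also rises where the other read pairs of a gene fall, so it does not measure the level. AT1G70600 had 119 and 72 short start read pairs and AT1G43170 had 105 and 49, in lists of 794299 and 410655. The 15 further genes with short start TIF-clusters in a *hen2-2* list had between 3 and 10 read pairs there. Outside the *hen2-2* lists, *RPL18* AT3G05590 had 6 short start read pairs in wild type and *RPL12* AT2G37190 had 6 in *ssrp1-2*. The TIF-cluster of the first spanned 347 nt and ended in exon 2, and that of the second spanned 199 nt. Both were longer than any of the *hen2-2* lists.

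The 85 short start TIF-clusters of the *hen2-2* lists spanned 42 to 157 nt. Their median length was 95.5 nt in *hen2-2* and 90 nt at 4 °C, against 92 and 90 nt over all genes. Of the 44 in *hen2-2*, 28 with 434 read pairs ended in intron 1 and 15 with 221 in exon 1. Of the 41 at 4 °C, 26 with 371 read pairs ended in intron 1 and 13 with 214 in exon 1. An end before the start codon was found in 17 of 44 and 19 of 41. The places of the ends were not counted over all genes, so these counts show no trait of the 60S genes. Ends at a similar distance from the start fell in different parts of the genes, as the plot of their 3′ ends shows beside the end of exon 1.

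**Figure D3:**
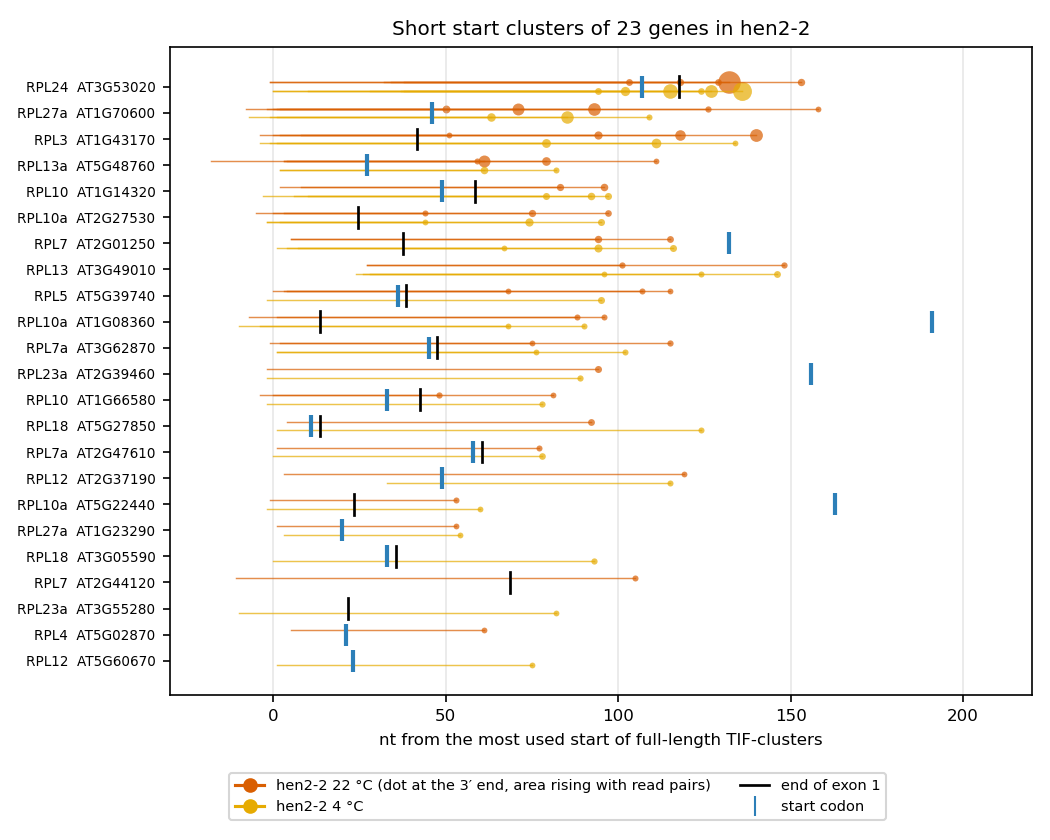
Short start TIF-clusters of the 23 genes that had them in a *hen2-2* list, drawn as lines from their 5′ to their 3′ ends in nt from the most used start, with a dot at the 3′ end whose area rises with read pairs. Black bars mark the end of exon 1 where the start lies in that exon and blue bars the outermost start codon over isoforms, both where closer than 220 nt. The ends gather around 90 nt and lie in intron 1 in 15 of the 23 genes, a count not made over all genes.

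The short start TIF-clusters were chosen to overlap the most used start extended by 40 nt, which limits how far their 5′ ends can lie from it. Of the 85 in the *hen2-2* lists, 79 began within 5 nt of the 5′ end of a full-length TIF-cluster and the others 6 to 32 nt from one. In *hen2-2* all 44 short start TIF-clusters, and at 4 °C 40 of 41, began within 20 nt of the 5′ end of a full-length TIF-cluster of the same gene and list. The exception, of *RPL12* AT2G37190, held 4 read pairs.

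Within families, the share of each paralogue in the full-length read pairs showed how expression was split. In *RPL4* the leading share ranged over 22.2 points between lists and in *RPL10a* over 17.2 points, an order that turned with all TIF-clusters on the strand (22.2 and 24.9 points). AT3G09630 held 64.2%, 49.8%, 57.1%, 69.3%, 47.1% and 55.3% of the family, and AT5G02870 the rest. The interval for AT3G09630 was 61.4% to 66.8% in wild type, 66.2% to 72.2% in *ssrp1-2* and 44.1% to 50.1% in wild type at 4 °C, which do not overlap apart from the first 2. In *hen2-2* the interval was 47.5% to 52.0%, so neither there nor in wild type at 4 °C did 1 paralogue lead beyond counting error.

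*RPL10a* and *RPL8* also shifted. In *RPL10a*, AT1G08360 held 17.5% in wild type (13.7% to 22.0%) and between 28.9% and 36.7% in the other lists. AT2G27530 held 41.3%, 35.2%, 39.9%, 32.9%, 25.6% and 42.9%, and AT5G22440 held 41.3%, 35.9%, 26.7%, 30.4%, 39.6% and 26.1%. In *RPL8*, whose protein lies near the peptidyl transferase centre, AT2G18020 (*EMB2296*) held 79.3%, 87.7%, 76.5%, 79.5%, 85.1% and 92.1%. Its paralogue AT4G36130 had 105, 63, 119, 102, 55 and 10 read pairs and was thus lowest in the list of *hen2-2* at 4 °C.

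In *RPL11*, whose protein binds 5S ribosomal RNA together with RPL5, AT4G18730 (*RPL16B*) led with 53.7% to 67.3% and AT5G45775 followed with 27.8% to 37.4%. AT3G58700 had 8, 3, 3, 5, 40 and 0 read pairs, so its share was 18.5% (13.9% to 24.2%) in wild type at 4 °C and 3.25% in wild type (1.66% to 6.28%). AT2G42740 (*RPL16A*) had 4, 13, 5, 0, 0 and 0. In *RPL24* and *RPL27a* the leading genes AT3G53020 and AT1G70600 held 67.7% to 76.1% and 62.3% to 72.0% of full-length read pairs.

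**Figure D4:**
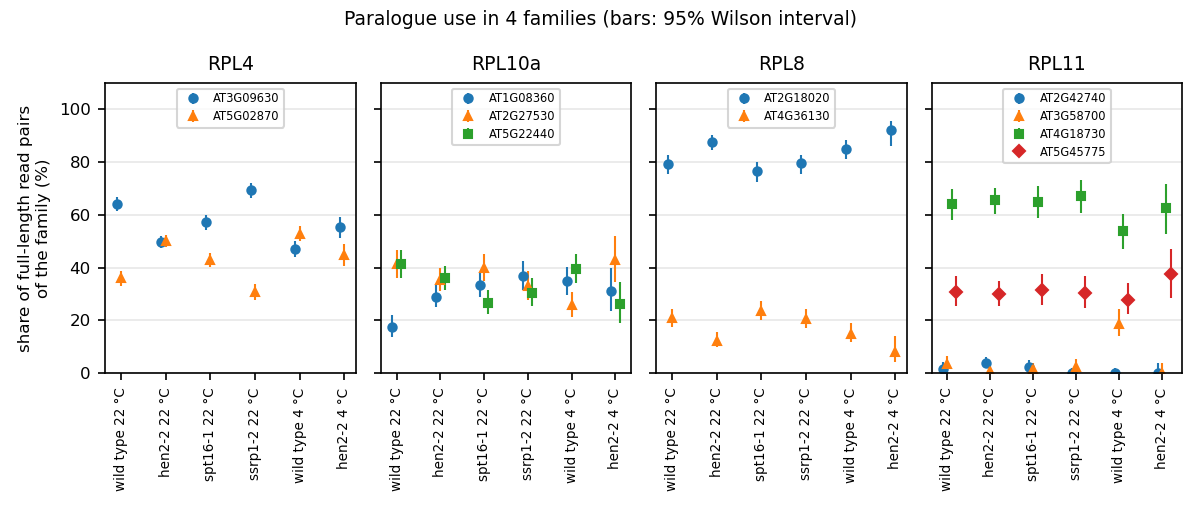
Share of each paralogue in the full-length read pairs of its family, in percent, in the 6 lists for the 4 families whose leading share of full-length read pairs varied most, with 95% Wilson intervals for counting error. The shares of the *RPL4* paralogues are close to equal in *hen2-2* and in wild type at 4 °C, while AT2G18020 leads *RPL8* in all of them.

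Because only unique alignments had been kept, read pairs of identical paralogues could be lost. At 46 of 48 genes every run of 50 nt in the first 150 nt was unique in the genome, and at all 48 every run in the last 150 nt was. The exceptions were the *RPL9* genes AT1G33120 and AT1G33140 (*PGY2*), in which no run at the start was unique. They had 0, 0, 0, 0, 0 and 3, and 9, 3, 3, 14, 10 and 3 read pairs, so their levels and the split within *RPL9* cannot be read from these lists. The third *RPL9* gene AT4G10450 had 20, 28, 19, 5, 22 and 0. *RPL10* AT1G26910 (*RPL10B*) had 0, 0, 12, 0, 6 and 4 although its ends were unique.

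A second kind of partial TIF-cluster was most abundant at the *RPL5* genes. At AT3G25520, TIF-clusters that began after the coding sequence or within its last 150 nt and ended at the usual 3′ end held 591, 561, 51, 263, 95 and 255 read pairs. That is 61.3% of the gene in wild type (58.2% to 64.3%), 53.6% in *hen2-2*, 12.7% in *spt16-1* (9.78% to 16.3%), 39.9% in *ssrp1-2*, 24.7% in wild type at 4 °C (20.6% to 29.2%) and 69.1% in *hen2-2* at 4 °C. They spanned 191 to 387 nt. The full-length read pairs of the gene were 360, 444, 348, 384, 276 and 111. In *spt16-1* the total was 562 raw read pairs below wild type, of which 540 lay in the 3′ TIF-clusters. These differences are not scaled to the depths of the lists. In RPM the 3′ TIF-clusters stood at 701 in wild type and 55.1 in *spt16-1*. At the paralogue AT5G39740 (*RPL5B*) they held 14.4%, 22.4%, 27.4%, 8.84%, 19.1% and 27.4%, with the share in *spt16-1* above that in wild type. Such TIF-clusters were listed at 12, 15, 10, 9, 5 and 11 of the 60S genes and held 743, 794, 197, 324, 157 and 356 read pairs, of which 640, 674, 153, 289, 143 and 300 were those of the *RPL5* genes. They were not counted over all coding genes, so these counts show no trait of the 60S genes. Among the rest, *RPL18* AT5G27850 had 31 in wild type, or 12.0% of the gene. The authors describe a bias of TIF-seq starts towards the 3′ ends of genes and filtered starts for it, and its part in these TIF-clusters was not tested.

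TIF-clusters that begin inside the coding sequence and end after it were also found at *RPL19* AT1G02780, where they held 132, 107, 50, 33, 63 and 15 read pairs. None of these began within the last 150 nt of the coding sequence or after it. The wild-type list at 22 °C held the most of the 6. They made up 23.2%, 17.7%, 9.63%, 7.21%, 15.8% and 8.62% of the gene. *RPL3* AT1G43170 had 74, 103, 49, 52, 52 and 19 such read pairs, and *RPL12* AT2G37190 had 61, 40, 31, 33, 19 and 31.

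The comparison of *hen2-2* with wild type asked which genes change when RNA decay by the nuclear exosome is impaired. The 60S genes had a median log2 ratio of 0.40 over the 43 genes with 20 or more read pairs, against 0.09 over all 7166 features. Of the 43, 37 were above 0 and 6 below, the latter including AT1G23290 at −0.37 and AT4G36130 at −0.65. Here and in the comparisons below, ratios above and below 0 were not counted over all features. These counts therefore show no trait of the 60S genes. At least 2-fold higher were 4 of 43 (all features 12.8%), and none was 2-fold lower (all features 9.07%). All features, here and below, were not matched to the 60S genes for read pairs, and ratios vary more where these are few. Counts past 2-fold therefore do not show whether large changes are rarer or more frequent at the 60S genes. The other genes of the large subunit had a median of −0.07 and those of the small subunit of 0.07.

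The 4 genes were of different kinds. AT5G48760 was higher by 1.83 on the log2 scale (interval 1.25 to 2.49), which was 0.13 with full-length TIF-clusters alone. AT1G08360, with 60, 147, 119, 105, 107 and 44 read pairs, was higher by 1.37 (0.94 to 1.84) and by 1.31 with full-length TIF-clusters. AT5G02870 was higher by 1.18 (1.01 to 1.34) and AT1G43170 by 1.02 (0.86 to 1.17), also mostly in full-length TIF-clusters. AT3G53020 was higher by 0.58 in total and 0.16 in full-length TIF-clusters, and AT1G70600 by 0.45 and 0.21.

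**Figure D5:**
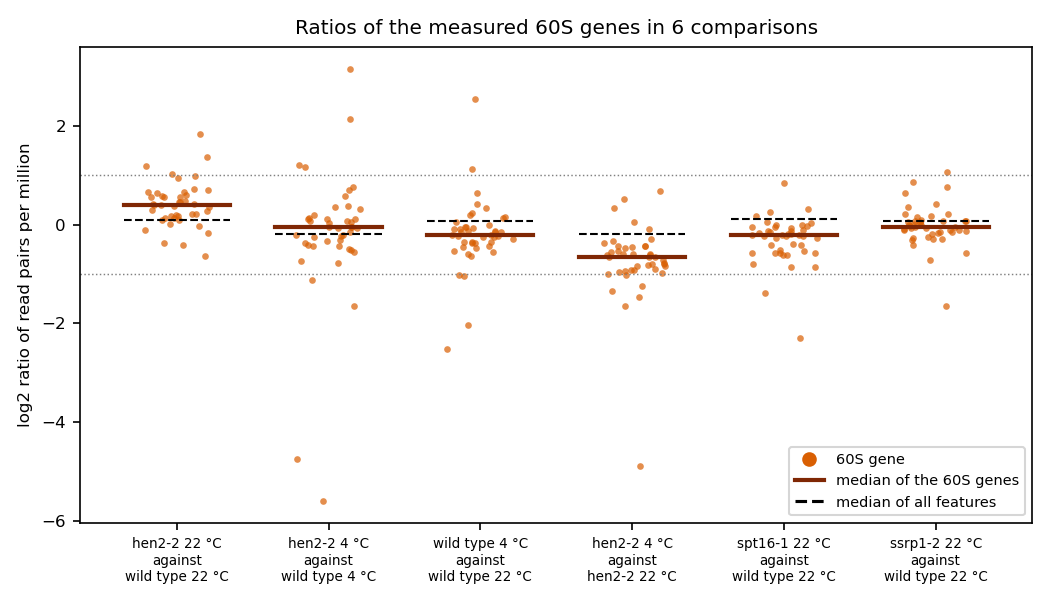
Log2 ratio of RPM for each 60S gene with 20 or more read pairs in the lists compared, in 6 comparisons, with the median of the 60S genes (solid) and of all features (dashed) and dotted lines at 2-fold. The 60S median lies above that of all features in both comparisons of *hen2-2* with wild type and below it in the other 4.

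In *hen2-2* against wild type at 4 °C the median was −0.06 over 44 genes against −0.20 over 5681 features, and relative to all features it was 0.14. At least 2-fold higher were 4 (all features 8.36%) and at least 2-fold lower were 4 (all features 17.6%). The higher ones were AT3G53020 by 1.16 (0.97 to 1.36), AT5G48760 by 1.20 (0.21 to 2.23), AT1G61580 by 3.15 (1.56 to 5.74) and *RPL12* AT5G60670, with 37, 26, 23, 25, 7 and 19 read pairs, by 2.13 (0.88 to 3.68). With full-length TIF-clusters alone, AT3G53020 stood at −0.19 and AT5G48760 at −0.59, and AT1G61580 had 3 full-length read pairs in wild type and none listed in *hen2-2*. For AT5G60670 the full-length value was 1.89. Among the lower ones, AT4G36130 was at −1.65 (−2.85 to −0.72) and AT5G22440, with 130, 168, 95, 91, 125 and 34 read pairs, at −1.11 (−1.72 to −0.57). The other 2, AT3G58700 and AT4G10450, had 40 and 22 read pairs in wild type and no TIF-cluster listed in *hen2-2* at 4 °C, so no fold is given. In this comparison the median was 0.31 for the other genes of the large subunit and 0.07 for the small subunit.

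After cold, the 60S genes of wild type had a median of −0.21 over 44 genes against 0.06 over 6840 features, with 34 below 0 and 10 above. At least 2-fold higher were 2 (all features 14.6%), AT3G58700 by 2.54 (1.50 to 3.92) and AT1G08360 by 1.12 (0.65 to 1.60). At least 2-fold lower were 4 (all features 11.9%). Of these AT3G25520 was at −1.03 (−1.21 to −0.86), which was −0.09 with full-length TIF-clusters. AT1G23290 was at −1.03 (−1.31 to −0.76), AT5G60670 at −2.03 (−3.52 to −0.93) and AT1G61580 at −2.52 (−5.09 to −0.99). The other genes of the large subunit had a median of −0.79 and 25 of 69 at least 2-fold lower. Genes of the small subunit had a median of −0.27.

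Cold in *hen2-2* gave a median of −0.67 over 43 genes against −0.20 over 6178 features, and −0.47 relative to all features. All but 4 of the 43 were below 0, a count not made over all features. None was at least 2-fold higher (all features 9.55%), and 6 were at least 2-fold lower (all features 19.0%). They were AT1G43170 at −1.46 (−1.69 to −1.24), AT4G36130 at −1.64, AT5G22440 at −1.34, AT5G48760 at −1.24, AT2G47610 of *RPL7a* at −1.01 and AT4G10450 without a TIF-cluster in the cold list. AT3G53020 stood at 0.34 (0.17 to 0.50), and at −0.51 with full-length TIF-clusters. The median was −0.37 for the other genes of the large subunit and −0.32 for the small subunit.

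Mutants of FACT were compared with wild type at 22 °C. In *spt16-1* the median of the 43 genes was −0.22 against 0.11 over 7381 features, with 37 below 0 and 6 above. None was at least 2-fold higher (all features 14.1%) and 2 were at least 2-fold lower (all features 8.28%), namely AT3G25520 at −1.39 (−1.57 to −1.23) and AT1G61580 at −2.29 (−4.14 to −0.98). The first was −0.18 with full-length TIF-clusters. The median was −0.57 for the other genes of the large subunit and −0.39 for the small subunit.

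In *ssrp1-2* the median of 44 genes was −0.04 against 0.08 over 6819 features. At least 2-fold higher was 1 gene (all features 12.3%), AT1G08360 by 1.06 (0.59 to 1.55), and at least 2-fold lower was 1 (all features 11.4%), AT4G10450 at −1.64 (−3.51 to −0.29). The median was −0.52 for the other genes of the large subunit and −0.008 for the small subunit, so the listed genes do not stand for the whole subunit. AT1G08360 was also above wild type in *hen2-2* and in wild type at 4 °C. These comparisons share the wild-type list, in which this gene had its lowest level of the 6 lists, 71.2 RPM against 107 RPM or more in the others. In *ssrp1-2* AT5G02870 was at −0.42 (−0.64 to −0.21), and AT3G09630 kept its place as leading *RPL4* gene.

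Promoters of ribosomal protein genes in plants carry the telo-box and site II elements. In a window from 250 bases before to 50 bases after the annotated start, the telo-box AAACCCTA was found on either strand at 24 of 48 60S genes, against 6.22% of all 27444 coding genes. Site II, searched as GGCCCA or AGCCCA, was found at 41 of 48, or 85.4%, against 21.7%. GAGAG or GAGAA was found at 42 of 48, or 87.5%, against 76.9%. None of these motifs contains another, but their matches may share bases.

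Placed on the most used 5′ end instead, which was chosen after seeing the data, the telo-box was found at 40 of 45 genes, or 88.9%, against 9.43% of 13506 genes with a measured start. Site II was then found at 40 of 45 against 27.6%, and GAGAG or GAGAA at 40 of 45 against 90.2%, so the last was not above the background in this window. At the small subunit genes the telo-box was found at 81.3% and site II at 80.0%. Relative to the most used start, the telo-box had a median position of −45.5 nt and site II of −100 nt. The telo-box was found at 20 of 23 60S genes with short start TIF-clusters in a *hen2-2* list and at 20 of 22 without them, and site II at 21 of 23 and 19 of 22.

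The promoter of AT3G53020 held 5 matches to site II. It is printed here with those of *RPL7* AT2G01250 and *RPL13* AT3G49010 to show how the elements are spaced. The lines give the 120 bases before the annotated start, 5′ to 3′ on the minus strand of TAIR10, with site II in capitals, at chr3:19662026-19662145, chr2:134456-134575 and chr3:18168701-18168820.
AT3G53020 promoter: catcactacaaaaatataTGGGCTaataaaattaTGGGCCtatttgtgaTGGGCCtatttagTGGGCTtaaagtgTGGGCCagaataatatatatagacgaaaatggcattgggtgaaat
AT2G01250 promoter: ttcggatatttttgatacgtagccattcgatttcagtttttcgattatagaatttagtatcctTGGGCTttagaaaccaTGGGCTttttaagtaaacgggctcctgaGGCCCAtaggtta
AT3G49010 promoter: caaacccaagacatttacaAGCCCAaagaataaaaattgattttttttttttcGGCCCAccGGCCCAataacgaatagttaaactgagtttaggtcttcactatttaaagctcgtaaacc
Its telo-box, on the other strand, begins 27 nt after the most used start of AT3G53020 and is contained in the line printed above for the start of its short transcript. At AT1G70600 a telo-box ends directly before the first base of the printed short transcript, and a further one lies 79 nt before the most used start. A match describes the letters of the window and not the binding of a factor.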

How the data were processed

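TIF-seq libraries from 12 samples were analysed as 6 lists of TIF-clusters. Per the methods, the authors trimmed reads with cutadapt, aligned them to TAIR10 with STAR 2.6.1c, kept unique alignments, removed PCR copies with UMI-tools, merged the 2 libraries of a group, joined read pairs whose ends lay within 20 nt, and removed TIF-clusters at genomic runs of A or without a TSS. What the authors deposited for each TIF-cluster is a raw count (its number of read pairs), never under 3. Counts under 3 are not listed, so a missing TIF-cluster is no measured zero. The 6 TSS-seq samples are not analysed here, and the values of 1 of the 48 genes are not reported here.

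Gene models were those of RefSeq (TAIR and Araport annotation) on TAIR10.1, whose chromosomes 1 to 5 were checked to hold every TIF-cluster of the lists. The authors used TAIR10. Each TIF-cluster was given to the coding gene of its strand that shared most bases with it. Levels are in RPM, read pairs scaled to 1000000 per list, with exact Poisson intervals. Shares of read pairs have Wilson intervals, and ratios have Clopper-Pearson intervals of the split of read pairs, all at 95%. These cover counting error only. Log2 ratios used 0.5 added read pairs and features with at least 20 in both lists together. Past 2-fold was the threshold, and no gene was tested. Comparisons share lists, with wild type in 4 of 6. Depths of the lists ranged from 410655 to 924907 read pairs.

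Genes were named by rule. They were the 2 genes the study assayed singly, the 10 with most read pairs, the 8 with most short start read pairs, up to 5 past 2-fold in each direction per comparison, the members of the 4 families whose leading share varied most, with at least 50 full-length read pairs in each list, and any without read pairs. Other genes named were chosen after their values were seen. The members and lists were chosen with earlier results of these data known. Alternatives were the assignment of TIF-clusters, minimum counts, scaling, thinning, the start, window and length of short start TIF-clusters, merging within 50 nt, and the isoform. Functions were tested on simulated data. Primer sequences came from the supplement of the study and all other sequences from the genome. Scripts ran in Python 3.11.15. Intervals came from scipy 1.17.1, tables from pandas 2.3.3 with numpy 2.4.6, and plots from matplotlib 3.10.9.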

Additional observations from a re-analysis of the deposited data

How the results depend on the processing

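Of 169 values recomputed under an alternative, 107 stayed within a set limit and 62 moved. For levels, shares of read pairs and mean TIF-clusters per gene the limit was the counting interval. For numbers of genes it was 1.5 times the count. For median log2 ratios and motifs it was an interval over genes, which reflects the spread between genes and not counting error. The median of *hen2-2* against wild type at 4 °C, −0.06, changed sign with the scaling. No paired analysis was possible because each list holds 2 merged libraries, and for the same reason leaving out a replicate could not be run. TIF-clusters under 3 read pairs are not listed, so short TIF-clusters below that count could not be seen at this depth.

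Levels in RPM, in list order, fell to 15363, 20112, 12545, 14945, 13322 and 12892 with TIF-clusters of at least 5 read pairs, and to 13616, 17519, 11804, 13991, 12487 and 10525 with full-length TIF-clusters only. Scaling by the median ratio of all features moved the 60S median to 0.14 in *hen2-2* against wild type at 4 °C, −0.47 for cold in *hen2-2* and −0.12 in *ssrp1-2*, and left 0 of 1 gene 2-fold higher in *ssrp1-2*. Full-length TIF-clusters gave −0.25 in *hen2-2* against wild type at 4 °C.

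Counts past 2-fold moved as follows. With full-length TIF-clusters they were 2 higher and 2 lower in *hen2-2* against wild type, 1 higher at 4 °C, 2 lower for cold in wild type and 1 lower in *spt16-1*. With at least 100 read pairs they were 1 higher and 1 lower in *hen2-2* against wild type at 4 °C, 1 higher and 2 lower for cold in wild type, 1 lower in *spt16-1* and 0 lower in *ssrp1-2*. With thinned lists they were 1 lower in *hen2-2*, 2 lower in *hen2-2* against wild type at 4 °C, 1 higher and 1 lower in *spt16-1* and 0 lower in *ssrp1-2*.

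With the annotated gene start, the genes with short start TIF-clusters were 0, 2, 0, 0, 0 and 3 and their shares of read pairs 0%, 1.33%, 0%, 0%, 0% and 4.13%. Without AT3G53020, an alternative added once the data had been seen, the share was 2.79% in *hen2-2* and 5.92% at 4 °C. With thinned lists the genes were 13 in *hen2-2*, 0 in *ssrp1-2* and 1 in wild type at 4 °C. Mean full-length TIF-clusters per gene were 2.23, 2.25, 1.91, 2.14, 1.95 and 1.68 after merging within 50 nt, and 5.58, 6.17, 5.36, 5.56 and 5.41 in the 5 thinned lists. The telo-box moved to 88.9% with the window on the most used 5′ end, likewise added later. The cause was not tested for any of these.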
